A study of Mus musculus with 12 samples.

Results

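The genes described here are 33 named targets of the transcription factor ATF4 and cytosolic aminoacyl-tRNA synthetases, out of 22977 genes tested on the arrays. They were chosen by name, with earlier results of these data known. They comprise 4 transcription factors (Atf4, Atf5, Ddit3, Cebpg), 6 stress and feedback effectors (Ddit4, Chac1, Trib3, Sesn2, Ppp1r15a, Vldlr), 5 enzymes of serine, one-carbon and asparagine synthesis (Asns, Psat1, Phgdh, Shmt2, Mthfd2), 4 amino acid transporters (Slc3a2, Slc7a5, Slc7a1, Slc38a2), the tRNA export receptor Xpot and 13 tRNA synthetases. All 33 had a probe and all 33 passed the filter on dim probes. On all 12 arrays 32 were well above background, and Vldlr was on 11. Of the 33, 8 had more than 1 probe, and the brightest on average was used.

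When amino acids run short or proteins misfold, kinases phosphorylate the translation factor eIF2 alpha, general translation slows, and the Atf4 mRNA is translated more. ATF4 protein then binds, with C/EBP partners, to composite elements near genes for amino acid uptake, amino acid synthesis and tRNA charging. It also induces CHOP (the product of Ddit3), TRIB3 and the phosphatase subunit GADD34 (Ppp1r15a), which feed back on the pathway. ATF4 is regulated largely at translation, so an mRNA array does not measure its activity directly.

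RNA was measured in bone marrow cells that had been grown for 10 days with GM-CSF at 20 ng/mL, a culture the labels call bone marrow derived macrophages. The cells came from 2 wildtype mice (mice 1 and 2) and 2 Commd1 knockout mice (mice 3 and 4). Cells of each mouse were divided and left untreated or given LPS (Escherichia coli 026:B6) at 10 ng/mL for 3 h or 24 h, so that each of 6 groups holds 2 arrays. The strain, the age of the mice and the extent of the Commd1 deletion are not given in the sources used here. COMMD1 is a copper metabolism protein that also restrains NF-kappaB. All levels below are log2 processed signal minus the 75th percentile of the array, so 0 is the level of a gene at that percentile. A level cannot be set against that of another gene, since probes differ. All differences are log2, with the standard error after ±, and "rose", "fell", "higher" and "lower" mean an adjusted p under 0.05 in limma with Benjamini-Hochberg adjustment over all genes.

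The Commd1 probe (mm9, chr11:22856412-22856471) read 2.70 to 2.89 on the 6 wildtype arrays and -0.50 to 0.07 on the 6 knockout arrays, and it was 8.05-fold lower in untreated knockout cells (difference -3.01 ± 0.23, adjusted p = 0.00165). Whether the probe lies in the deleted part is not given, and knockout signal passed the background test on all 6 arrays. Markers above background on all arrays were 9 of 9 for macrophages, 7 of 7 measured for neutrophils, 4 of 6 for dendritic cells, 3 of 5 for stroma, 2 of 5 for B cells and 1 of 3 for T and NK cells. For erythroid cells 1 of 1 measured was, and for mast cells and basophils 0 of 2 measured. The median level of the macrophage markers untreated, at 3 h and at 24 h was 4.25, 5.26 and 4.66 in wildtype cells. In knockout cells it was 4.20, 4.68 and 3.53. Of the dendritic cell markers Itgax averaged 2.30 in untreated wildtype and 0.96 in untreated knockout cells, and 0.31 and -0.66 at 24 h. H2-Aa averaged -3.50 in untreated wildtype and -1.16 in untreated knockout cells, and Zbtb46 went from -5.00 untreated to 0.90 at 3 h in wildtype and from -4.79 to 1.45 in knockout cells. Of the stromal markers Dcn went from -4.34 untreated to -1.64 at 24 h in wildtype and from -3.39 to -1.16 in knockout cells. The part of these cells in the results was not tested, and in such bulk samples fewer cells of a type and less RNA per cell cannot be told apart. Spots above background made up 60.1% to 73.0% of an array, no spot was saturated, and outlier spots numbered 132 to 214 except 589 on the knockout 24 h array of mouse 3. Each LPS time was on a slide of its own, and the genotypes had fixed positions on each slide, so LPS time and slide, and genotype and position, cannot be told apart.

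To show the element class ATF4 is known for, the window of 250 bases before to 50 bases after the annotated start was read from RefSeq (GRCm38.p6) for the 27 members that had one, 4 of which have 2 windows. Slc7a5, Cars, Lars, Nars, Vars and Wars had none. The letters TGATGNAA, the core of the C/EBP-ATF composite element, were found on either strand for 9 of the 27 members (33.3%), against 4.51% of 27025 genes (3.97% of 32851 windows). TGATGCAA, which is contained in the first motif, was found for 6 of the 27 members (22.2%), against 1.03% of genes (0.895% of windows). The members were chosen by name as ATF4 targets and synthetases. Their higher shares may follow from that choice and carry no test. The 9 members were Chac1, Trib3, Vldlr, Asns, Aars, Gars, Iars, Tars and Yars, so 5 of the 8 synthetases with a window held the motif. The 6 with a match before the start are shown here as 250 bases, 5′ to 3′ on the gene's strand and ending at the start, with the match in capitals. TTGCATCA and TTTCATCA are matches read on the opposite strand. The windows are chr2:119350992-119351241 (+) for Chac1, chr19:27216770-27217019 (+) for Vldlr, chr6:7693210-7693459 (-) for Asns, chr15:11399659-11399908 (-) for Tars, chr8:111033592-111033841 (+) for Aars and chr6:55037751-55038000 (+) for Gars.
Chac1: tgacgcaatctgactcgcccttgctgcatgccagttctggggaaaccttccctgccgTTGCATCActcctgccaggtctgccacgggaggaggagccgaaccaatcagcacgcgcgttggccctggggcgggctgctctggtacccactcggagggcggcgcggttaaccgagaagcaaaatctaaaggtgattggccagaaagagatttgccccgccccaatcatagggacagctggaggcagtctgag
Vldlr: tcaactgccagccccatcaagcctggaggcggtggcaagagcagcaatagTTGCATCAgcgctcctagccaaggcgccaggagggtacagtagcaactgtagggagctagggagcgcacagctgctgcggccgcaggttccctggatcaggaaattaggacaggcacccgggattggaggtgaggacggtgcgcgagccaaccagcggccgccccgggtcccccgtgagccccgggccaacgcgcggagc
Asns: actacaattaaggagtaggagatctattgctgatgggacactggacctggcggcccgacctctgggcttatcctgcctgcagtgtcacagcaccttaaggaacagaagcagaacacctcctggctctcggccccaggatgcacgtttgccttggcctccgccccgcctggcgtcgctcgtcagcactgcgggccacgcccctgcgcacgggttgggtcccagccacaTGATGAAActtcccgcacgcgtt
Tars: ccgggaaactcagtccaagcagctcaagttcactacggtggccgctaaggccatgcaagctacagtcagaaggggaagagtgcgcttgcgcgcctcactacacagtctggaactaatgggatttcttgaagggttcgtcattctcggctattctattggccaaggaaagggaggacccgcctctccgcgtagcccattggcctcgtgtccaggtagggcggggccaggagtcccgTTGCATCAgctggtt
Aars: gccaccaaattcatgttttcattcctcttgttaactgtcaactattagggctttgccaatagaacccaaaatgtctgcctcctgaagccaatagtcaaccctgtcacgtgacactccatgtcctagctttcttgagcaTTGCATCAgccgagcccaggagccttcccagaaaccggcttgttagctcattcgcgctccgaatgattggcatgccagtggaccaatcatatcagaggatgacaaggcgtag
Gars: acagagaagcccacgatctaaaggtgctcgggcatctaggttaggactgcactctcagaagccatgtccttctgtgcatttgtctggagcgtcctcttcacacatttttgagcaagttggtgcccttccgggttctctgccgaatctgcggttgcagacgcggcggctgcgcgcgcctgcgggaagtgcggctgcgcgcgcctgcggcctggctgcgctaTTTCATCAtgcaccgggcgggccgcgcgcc
A match describes letters and does not show a bound site. The bases between match and start numbered 185 in Chac1, 192 in Vldlr, 104 in Aars, 22 in Gars, 15 in Asns and 7 in Tars. These 6 genes did not move alike: after 3 h in wildtype cells Tars rose, Chac1 and Vldlr fell, and Asns, Aars and Gars did not pass the test, as given below. Trib3, Iars and Yars held their match only after the start, and Aars held a second match there.

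LPS split the 33 members in time. In wildtype cells 5 members were higher and 9 lower after 3 h, against 23.2% and 23.4% of all genes, and the median difference was 0.06 (0.03 over all genes). After 24 h 10 were higher and 10 lower, against 23.6% and 26.4% of all genes, with a median of 0.16 (-0.04 over all genes). Between 3 h and 24 h 11 rose and 11 fell (25.7% and 26.9% of all genes). In knockout cells 14 were higher and 8 lower after 3 h (26.4% and 25.7% of all genes; medians 0.31 and 0.06), and 15 were higher and 10 lower after 24 h (26.0% and 31.5%; medians 0.04 and -0.07). From 3 h to 24 h 12 rose and 13 fell in knockout cells (26.3% and 32.6% of all genes). In wildtype cells at 3 h members were thus called no more often than genes at large. In the other comparisons they were called more often in total, most of all on the higher side in knockout cells at 3 h and 24 h. Members share arrays and were chosen with earlier results of these data known, so these counts carry no test. The comparisons with untreated cells share the untreated arrays of their genotype.

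**Figure D1:**
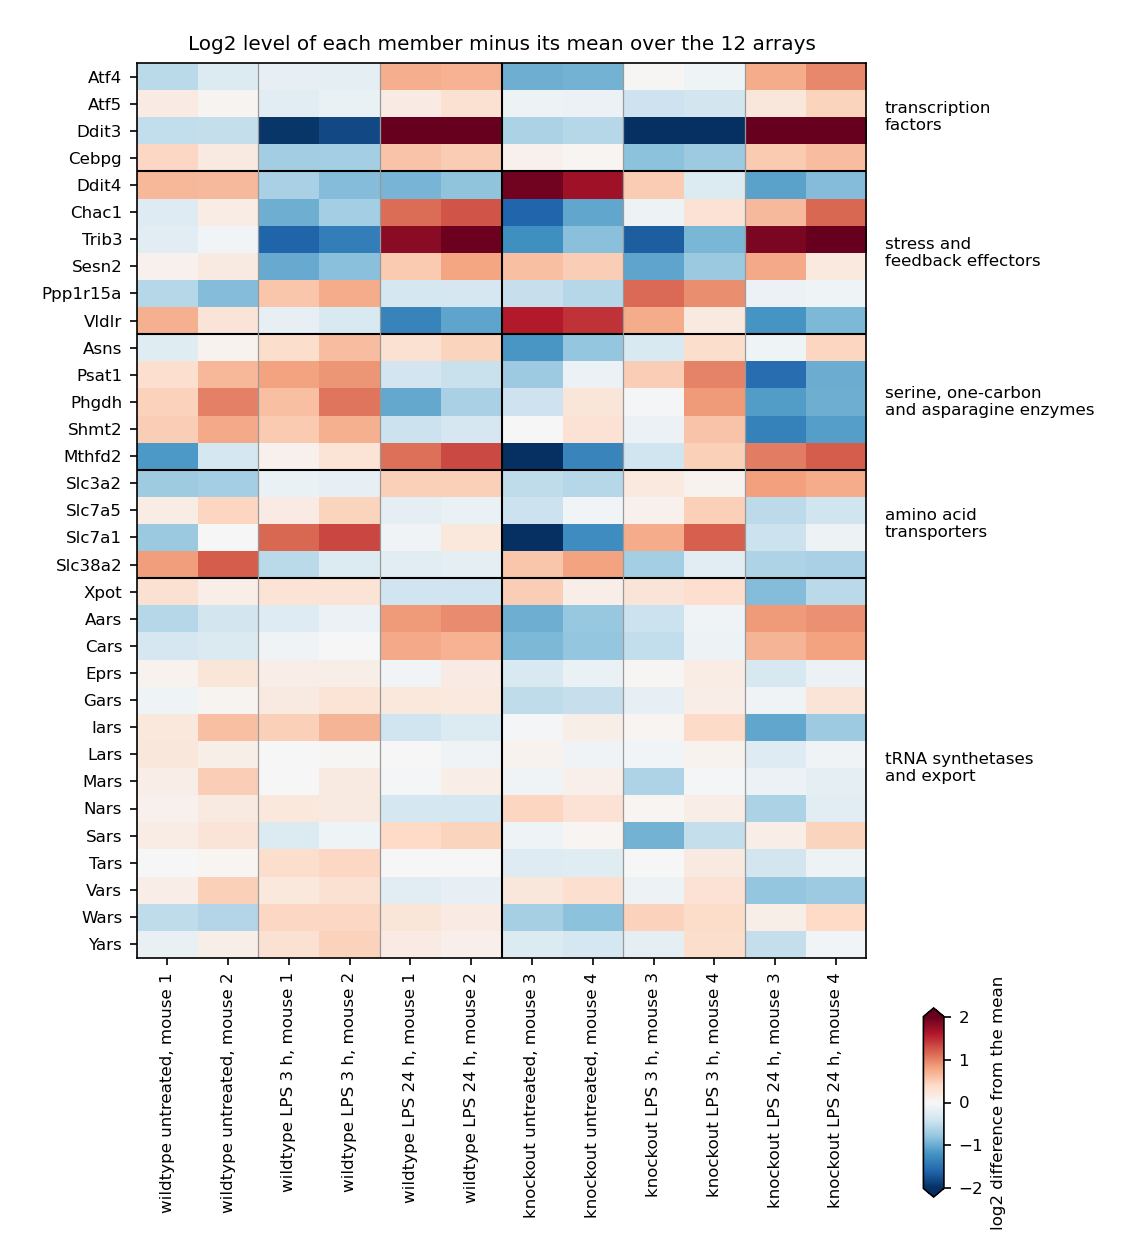
Log2 level of each of the 33 members (rows, grouped by role) on the 12 arrays (columns, by genotype, LPS time and mouse), minus the member's mean over the arrays; colours stop at -2 and 2. Ddit3 and Trib3 are blue at 3 h and dark red at 24 h in both genotypes, while Psat1, Phgdh and Shmt2 are blue at 24 h.

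Ddit3, which encodes the stress transcription factor CHOP, had the largest swing of the members. Its levels were 0.31 and 0.32 in untreated wildtype cells, -1.15 and -1.0041 after 3 h and 2.99 and 3.18 after 24 h. In knockout cells they were 0.17 and 0.23, then -1.29 and -1.19, then 3.55 and 3.47. The 3 times did not overlap in either genotype. Ddit3 thus fell by 1.39 ± 0.10 at 3 h (2.63-fold, adjusted p = 8.75e-06) and stood 2.77 ± 0.10 above untreated at 24 h (6.83-fold, adjusted p = 2.6e-07) in wildtype cells, and the knockout differences were -1.44 ± 0.10 and 3.32 ± 0.10. From 3 h to 24 h it rose 17.9-fold in wildtype and 27.0-fold in knockout cells. The probes of Ddit3 and Mars lie 1118 bases apart on chromosome 10, and Mars, the methionyl-tRNA synthetase, did not pass in any LPS comparison.

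Atf4 itself rose late. It read 5.34 and 5.60 in untreated wildtype cells, 5.70 and 5.69 after 3 h and 6.59 and 6.57 after 24 h. Its knockout levels were 4.90 and 4.92, 5.90 and 5.78, and 6.62 and 6.84. The 24 h arrays were above all others in both genotypes, and the untreated knockout arrays were the lowest of the 12. At 24 h Atf4 was 2.17-fold higher in wildtype cells (1.12 ± 0.11, adjusted p = 8.74e-05) and 3.52-fold higher in knockout cells (1.81 ± 0.11, adjusted p = 3.97e-06). At 3 h it was higher in knockout cells (0.93 ± 0.11, adjusted p = 0.000163), and the wildtype difference of 0.23 ± 0.11 did not pass (adjusted p = 0.13). A second, dimmer Atf4 probe gave 0.43 and 1.55 in wildtype and 1.38 and 2.23 in knockout cells at 3 h and 24 h. Spike-in RNAs, whose log2 signal should follow their known amounts, gave slopes of 0.735 to 0.743 on wildtype arrays without LPS and at 3 h, against 0.820 to 0.824 at 24 h. With that slope divided out, the wildtype rise of Atf4 from 3 h to 24 h (0.89 ± 0.11) was 0.27 and did not pass (adjusted p = 0.149), and its wildtype rise over untreated at 24 h was 0.48 (adjusted p = 0.0223). With quantile normalization the knockout rise at 3 h was 0.54 (adjusted p = 0.00148).

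Cebpg, whose product is a C/EBP partner of ATF4, dipped at 3 h and was back at or above its untreated level at 24 h. Untreated wildtype cells read 0.94 and 0.71, 3 h cells -0.17 and -0.15 and 24 h cells 1.09 and 1.03. In the knockout the pairs were 0.61 and 0.56, -0.30 and -0.20, and 1.05 and 1.14. The 3 h arrays were the lowest 4 of the 12. Cebpg fell at 3 h by 0.99 ± 0.10 in wildtype and 0.84 ± 0.10 in knockout cells, and rose from 3 h to 24 h by 1.23 and 1.35 (adjusted p = 1.87e-05 and 7.78e-06). At 24 h it was higher than untreated in knockout cells, by 0.44 in mouse 3 and 0.58 in mouse 4 (0.39 to 0.56 over the alternatives). The wildtype change at 24 h, 0.15 in mouse 1 and 0.32 in mouse 2, did not pass. Atf5, a related stress factor, ranged from 4.16 to 5.02. From 3 h to 24 h it rose by 0.39 and 0.43 in the wildtype mice and by 0.65 and 0.80 in the knockout mice. The knockout step was 0.40 to 0.89 over the alternatives, and the wildtype step was -0.051 with the spike-in slope divided out. Atf5 was also higher than untreated at 24 h in knockout cells, by 0.33 and 0.56. That call was lost with the spike-in slope divided out and with only the groups compared. Its fall at 3 h (-0.29 ± 0.10 in wildtype, adjusted p = 0.0448, and -0.28 ± 0.10 in knockout cells, adjusted p = 0.0446) did not pass with the mouse as a block (adjusted p = 0.0579 and 0.0571), nor without any 1 of the 4 arrays compared (wildtype -0.34 to -0.23, knockout -0.31 to -0.25), while quantile normalization gave -0.61 and -0.63.

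**Figure D2:**
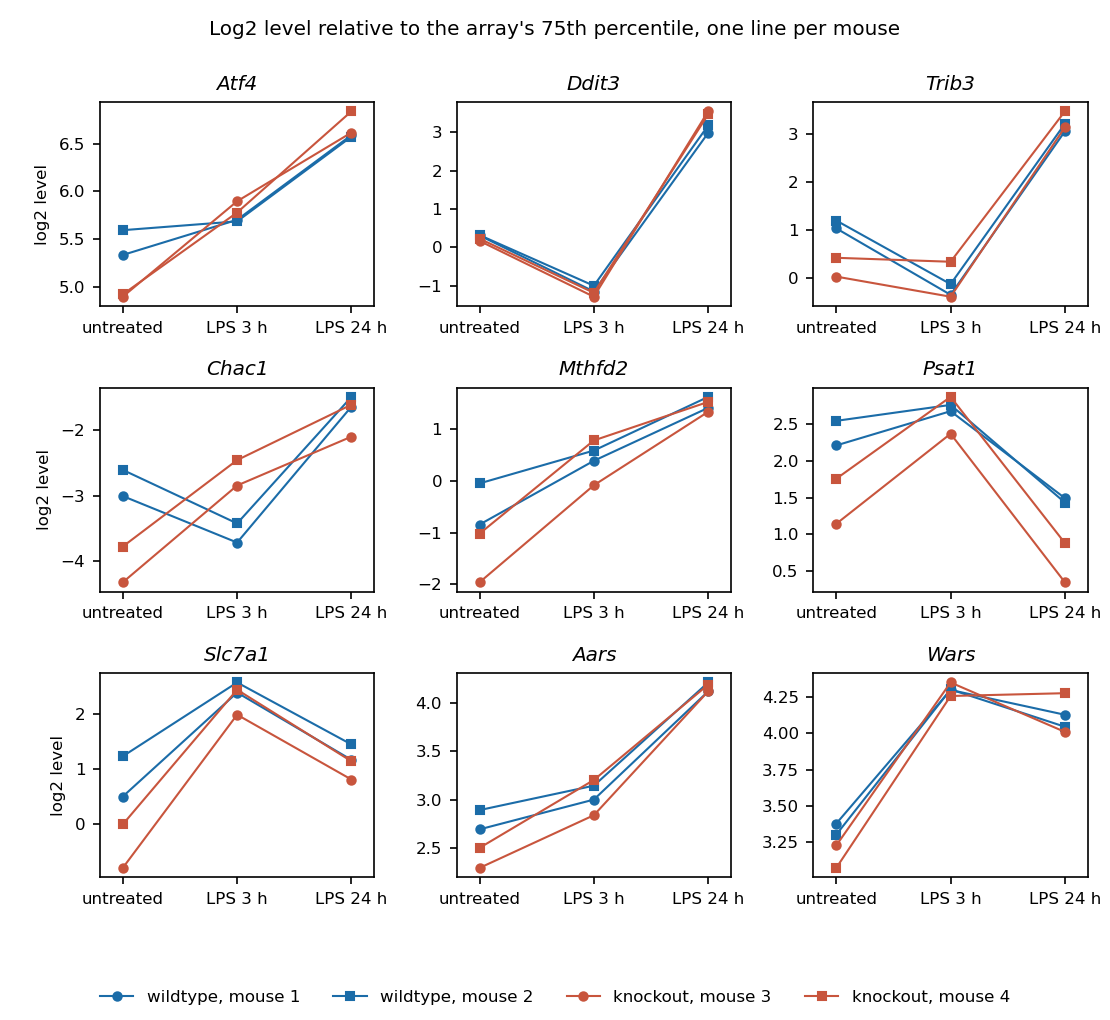
Log2 level of 9 members (panels, each with its own y axis) by LPS time, with 1 line per mouse, wildtype in blue and knockout in red. Ddit3 and Trib3 reach their highest level at 24 h in all 4 mice, Wars is already up at 3 h, Psat1 falls below its untreated level by 24 h, and Chac1 goes down at 3 h in the wildtype mice and up in the knockout mice.

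Trib3, a pseudokinase induced by CHOP and ATF4, followed Ddit3. Wildtype cells read 1.04 and 1.20 untreated, -0.35 and -0.12 after 3 h and 3.06 and 3.22 after 24 h. Knockout cells read 0.03 and 0.42, -0.39 and 0.34, and 3.15 and 3.48. At 24 h all 4 arrays were above all others. The late rise was 4.06-fold in wildtype (2.02 ± 0.24, adjusted p = 0.000229) and 8.48-fold in knockout cells (3.08 ± 0.24, adjusted p = 1.5e-05). The early fall in wildtype cells was 1.36 ± 0.24 (adjusted p = 0.00202). In the knockout, whose untreated arrays read lower, the 3 h difference was -0.25 ± 0.24 (adjusted p = 0.416; without the 3 h array of mouse 4 it was -0.62, adjusted p = 0.0463). Sesn2, a stress-induced inhibitor of mTORC1, read -0.06 and 0.03, -1.17 and -0.99, and 0.37 and 0.64 in wildtype and 0.44 and 0.34, -1.20 and -0.90, and 0.61 and 0.04 in knockout cells. Its 3 h arrays were the lowest of all. It fell at 3 h by 1.07 ± 0.19 and 1.44 ± 0.19 (adjusted p = 0.00213 and 0.000297), and at 24 h the differences of 0.52 ± 0.19 and -0.07 ± 0.19 did not pass (adjusted p = 0.0537 in wildtype cells, and 0.0315 with only the groups compared).

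Chac1, which encodes a glutathione-degrading enzyme induced by ATF4, moved in opposite directions at 3 h in the genotypes. In wildtype cells it read -3.01 and -2.60 untreated, -3.72 and -3.43 at 3 h and -1.63 and -1.48 at 24 h. In knockout cells it read -4.33 and -3.78, -2.84 and -2.45, and -2.09 and -1.60. The untreated knockout arrays were the lowest of the 12, and the 24 h arrays the highest. At 3 h Chac1 fell in both wildtype mice (by 0.71 and 0.82; difference -0.77 ± 0.25, adjusted p = 0.0354) and rose in both knockout mice (by 1.49 and 1.33; difference 1.41 ± 0.25, adjusted p = 0.0016). The wildtype fall did not pass without the untreated array of mouse 2 (-0.57, adjusted p = 0.183), the 3 h array of mouse 1 (-0.62, adjusted p = 0.168) or that of mouse 2 (-0.91, adjusted p = 0.0599), nor with quantile normalization or with dim probes kept (adjusted p = 0.0593 in both). The difference between the 2 responses was 2.17 ± 0.36 and did not pass (adjusted p = 0.0882), and with the mouse as a block it did (adjusted p = 0.0497), as with normexp background correction (1.69, adjusted p = 0.0302) and with only probes above background on every array (adjusted p = 0.0387). The 24 h responses were 1.25 ± 0.25 and 2.21 ± 0.25, and their difference of 0.96 ± 0.36 did not pass (adjusted p = 0.273), and did with the block (adjusted p = 0.0479).

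The other effectors did not follow Ddit3. Ppp1r15a, the eIF2 alpha phosphatase subunit, read 1.99 and 1.71, 3.12 and 3.31, and 2.21 and 2.23 in wildtype and 2.10 and 2.01, 3.71 and 3.50, and 2.45 and 2.49 in knockout cells. Its 3 h arrays were the highest of the 12. It rose at 3 h by 1.37 ± 0.12 (2.58-fold, adjusted p = 3.93e-05) and 1.55 ± 0.12 (2.92-fold, adjusted p = 1.29e-05), and was lower again at 24 h by 0.99 and 1.13. The excess over untreated at 24 h (0.37 ± 0.12, adjusted p = 0.0351) did not pass in wildtype cells with the mouse as a block (adjusted p = 0.0534) or without the untreated array of mouse 2 (0.23, adjusted p = 0.209), the 24 h array of mouse 1 (0.38, adjusted p = 0.108) or that of mouse 2 (0.36, adjusted p = 0.125). With the spike-in slope divided out it was 0.16 in wildtype (adjusted p = 0.315) and 0.24 in knockout cells (adjusted p = 0.152, against 0.41 ± 0.12 and 0.0199).

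Ddit4, which encodes the mTORC1 inhibitor REDD1, fell. The wildtype readings were 1.08 and 1.06, -0.24 and -0.45, and -0.52 and -0.39, and the knockout readings 2.34 and 2.11, 0.93 and 0.14, and -0.67 and -0.45. The untreated knockout arrays were highest and the 24 h arrays of both genotypes overlapped. The differences were -1.42 ± 0.23 at 3 h and -1.53 ± 0.23 at 24 h in wildtype, and -1.69 ± 0.23 and -2.79 ± 0.23 in knockout cells (adjusted p = 1.78e-05 to 0.00106). Vldlr, a lipoprotein receptor among the ATF4 targets, also fell. It read -3.86 and -4.32, -4.74 and -4.88, and -5.92 and -5.63 in wildtype and -3.00 and -3.13, -3.84 and -4.41, and -5.76 and -5.47 in knockout cells, and was not well above background on 1 of the 12 arrays. At 24 h it was 3.21-fold and 5.86-fold lower (-1.68 ± 0.22 and -2.55 ± 0.22, adjusted p = 0.000382 and 2.6e-05), and with normexp background correction the differences were -0.61 and -1.13, still past the threshold. The wildtype fall at 3 h (-0.72 ± 0.22, adjusted p = 0.0279) did not pass without the untreated array of mouse 1 (-0.49, adjusted p = 0.171), the 3 h array of mouse 1 (-0.79, adjusted p = 0.0678) or that of mouse 2 (-0.65, adjusted p = 0.127), nor with normexp (-0.36, adjusted p = 0.0682).

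**Figure D3:**
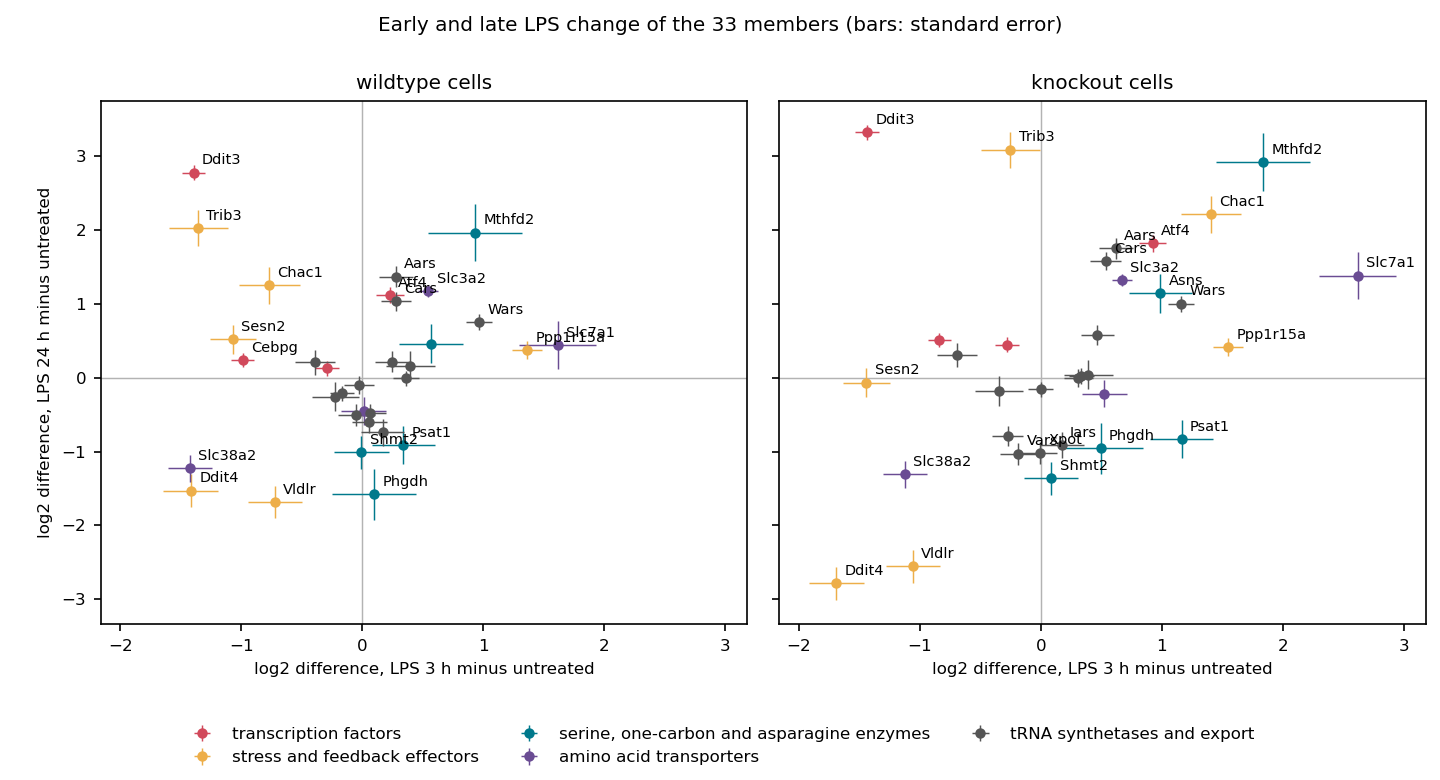
Log2 difference from untreated at 3 h (x axis) against 24 h (y axis) for the 33 members, with standard errors, wildtype left and knockout right, coloured by role. Ddit3 lies at the upper left, Mthfd2 at the upper right, Ddit4, Vldlr and Slc38a2 at the lower left. Trib3 lies at the upper left in wildtype cells and near the vertical line in knockout cells. The untreated arrays enter both axes.

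The enzymes of serine and one-carbon synthesis went in opposite directions by 24 h. Mthfd2, a mitochondrial folate enzyme, read -0.85 and -0.05, 0.38 and 0.58, and 1.41 and 1.62 in wildtype and -1.96 and -1.02, -0.09 and 0.78, and 1.33 and 1.52 in knockout cells. The 24 h arrays were the highest 4 of the 12, while the 2 mice of a genotype differed by up to 0.94 before LPS. It rose at 24 h by 1.96 ± 0.39 (3.89-fold, adjusted p = 0.00319) and 2.92 ± 0.39 (7.55-fold, adjusted p = 0.00028). At 3 h the knockout rise of 1.84 ± 0.39 passed (adjusted p = 0.00393), and the wildtype difference of 0.93 ± 0.39 did not (adjusted p = 0.0802), except with the mouse as a block (adjusted p = 0.015), with normexp (adjusted p = 0.0412) or without the untreated array of mouse 2 (1.33, adjusted p = 0.0468).

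Phgdh, Psat1 and Shmt2, which carry out the entry into serine synthesis, its transamination step and the mitochondrial conversion of serine to glycine, were lower at 24 h. Phgdh read -0.34 and 0.22, -0.19 and 0.27, and -1.82 and -1.45 in wildtype and -1.21 and -0.55, -0.83 and 0.06, and -1.90 and -1.77 in knockout cells. Psat1 read 2.21 and 2.54, 2.67 and 2.76, and 1.49 and 1.43 in wildtype and 1.14 and 1.76, 2.36 and 2.86, and 0.35 and 0.88 in knockout cells. Shmt2 read -0.23 and 0.04, -0.19 and -0.01, and -1.15 and -1.05 in wildtype and -0.73 and -0.43, -0.84 and -0.14, and -2.06 and -1.82 in knockout cells. Within each genotype the 24 h arrays of all 3 genes lay below the untreated and 3 h arrays.

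The 24 h differences from untreated in wildtype and knockout cells were -1.58 ± 0.35 and -0.96 ± 0.35 for Phgdh (adjusted p = 0.00558 and 0.0431), -0.91 ± 0.26 and -0.83 ± 0.26 for Psat1 (adjusted p = 0.0183 and 0.0234) and -1.01 ± 0.22 and -1.36 ± 0.22 for Shmt2 (adjusted p = 0.00593 and 0.000983). The wildtype Psat1 fall did not pass without the untreated array of mouse 2 (-0.74, adjusted p = 0.104), the 24 h array of mouse 1 (-0.94, adjusted p = 0.0618) or that of mouse 2 (-0.88, adjusted p = 0.0775), and the knockout one not without the untreated array of mouse 4 (-0.53, adjusted p = 0.151) or the 24 h array of mouse 3 (-0.57, adjusted p = 0.145). Likewise the knockout Phgdh fall did not pass without the untreated array of mouse 4 (-0.62, adjusted p = 0.231), the 24 h array of mouse 3 (-0.89, adjusted p = 0.144) or that of mouse 4 (-1.02, adjusted p = 0.0979), nor with quantile normalization, the spike-in slope divided out or dim probes kept (-0.96 to -0.82, adjusted p = 0.0605 to 0.074). The knockout Psat1 fall did not pass with only the groups compared (adjusted p = 0.0716). At 3 h Psat1 rose in knockout cells (1.16 ± 0.26, adjusted p = 0.00522), whereas in wildtype cells the difference was 0.34 ± 0.26 (adjusted p = 0.319, and 0.0434 with the mouse as a block). A second probe of Phgdh gave -1.56 and of Psat1 -0.91 for the wildtype difference at 24 h.

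Asns, the asparagine synthetase and a textbook ATF4 target, stayed up at both times in knockout cells. It read 2.35 and 2.66, 2.94 and 3.21, and 2.89 and 3.04 in wildtype and 1.42 and 1.81, 2.28 and 2.94, and 2.50 and 3.03 in knockout cells. The untreated arrays were the lowest 2 of each genotype. The knockout differences were 0.99 ± 0.26 at 3 h (adjusted p = 0.0125) and 1.14 ± 0.26 at 24 h (2.21-fold, adjusted p = 0.00575). Without the untreated array of mouse 3 the first was 0.79 (adjusted p = 0.0809), and without the 3 h array of mouse 4 it was 0.66 (adjusted p = 0.0788), and with only the groups compared it did not pass (adjusted p = 0.0552). The wildtype differences of 0.57 ± 0.26 and 0.46 ± 0.26 did not pass (adjusted p = 0.109 and 0.18), and did with the mouse as a block (adjusted p = 0.00344 and 0.008).

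The transporters moved apart. Slc7a1, the cationic amino acid transporter that imports arginine, read 0.50 and 1.24, 2.40 and 2.58, and 1.17 and 1.45 in wildtype and -0.79 and -0.0021, 1.99 and 2.45, and 0.81 and 1.15 in knockout cells. Its 3 h arrays were the highest of the 12. It rose at 3 h by 1.62 ± 0.32 (3.07-fold, adjusted p = 0.00333) and 2.62 ± 0.32 (6.14-fold, adjusted p = 0.000165), and at 24 h the excess was 0.44 ± 0.32 (adjusted p = 0.284) and 1.38 ± 0.32 (adjusted p = 0.00597). Slc3a2, the heavy chain shared by several amino acid exchangers, rose stepwise: 3.72 and 3.75, 4.30 and 4.27, and 4.91 and 4.90 in wildtype and 3.93 and 3.86, 4.63 and 4.50, and 5.25 and 5.17 in knockout cells. No group overlapped another of its genotype. Its 24 h rise was 1.17 ± 0.08 and 1.32 ± 0.08 (adjusted p = 1.03e-05 and 3.54e-06), and the wildtype step from 3 h to 24 h (0.62 ± 0.08) was 0.16 and did not pass with the spike-in slope divided out (adjusted p = 0.135). Quantile normalization gave 3 h rises of Slc3a2 of 0.26 and 0.31, against 0.55 and 0.67, still past the threshold.

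Slc38a2, the neutral amino acid transporter SNAT2, fell early and stayed low, at 1.53 and 1.89, 0.16 and 0.42, and 0.47 and 0.50 in wildtype and 1.24 and 1.49, 0.01 and 0.47, and 0.07 and 0.05 in knockout cells. The untreated arrays were above all others. Wildtype cells fell by 1.42 ± 0.18 at 3 h and 1.23 ± 0.18 at 24 h, and knockout cells by 1.12 ± 0.18 and 1.31 ± 0.18 (adjusted p = 0.000298 to 0.000919). Slc7a5, the light chain that pairs with SLC3A2 to import leucine, ranged from -2.92 to -1.92. It rose at 3 h in knockout cells (0.53 ± 0.18, adjusted p = 0.041), a call lost without the untreated array of mouse 3 (0.33, adjusted p = 0.233) or the 3 h array of mouse 4 (0.33, adjusted p = 0.22). In wildtype cells its difference at 24 h was -0.45 ± 0.18 (adjusted p = 0.0722, and 0.0146 with the block). A second Slc7a5 probe did not share this pattern, with a 3 h difference of -0.22 in knockout cells, and the mean over both probes was 0.15 (adjusted p = 0.335).

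The tRNA synthetases did not move as one group. At 24 h 3 of the 13 were higher and 3 lower in wildtype cells (median -0.01), against 23.6% and 26.4% of all genes, and 4 were higher and 3 lower in knockout cells (median 0.02), against 26.0% and 31.5%. The enzymes for alanine and cysteine were highest at 24 h. Aars read 2.69 and 2.89, 3.00 and 3.14, and 4.11 and 4.21 in wildtype and 2.30 and 2.50, 2.84 and 3.20, and 4.12 and 4.18 in knockout cells. Cars read 2.72 and 2.76, 2.98 and 3.06, and 3.80 and 3.75 in wildtype and 2.15 and 2.28, 2.56 and 2.94, and 3.73 and 3.85 in knockout cells. The 24 h arrays of both genes were above all others. Aars was 2.58-fold and 3.36-fold higher (1.37 ± 0.14 and 1.75 ± 0.14, adjusted p = 9.66e-05 and 1.64e-05) and Cars 2.05-fold and 2.99-fold higher (1.03 ± 0.13 and 1.58 ± 0.13, adjusted p = 0.000251 and 1.63e-05). At 3 h both had risen in knockout cells, Aars by 0.62 ± 0.14 and Cars by 0.54 ± 0.13 (adjusted p = 0.0057 and 0.00708), calls lost with quantile normalization (0.40 and 0.33, adjusted p = 0.0512 and 0.0646) and with only the groups compared (adjusted p = 0.0524 and 0.07). Without the 3 h array of mouse 4 the Cars rise was 0.35, still past the threshold.

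Wars, the tryptophanyl enzyme, which is also an interferon-induced gene, rose early. It read 3.37 and 3.30, 4.30 and 4.31, and 4.13 and 4.05 in wildtype and 3.22 and 3.07, 4.35 and 4.26, and 4.01 and 4.28 in knockout cells. Every LPS array was above every untreated array. The 3 h differences were 0.97 ± 0.11 (1.95-fold, adjusted p = 0.000138) and 1.16 ± 0.11 (2.24-fold, adjusted p = 3.33e-05), the 24 h differences 0.75 ± 0.11 and 1.00 ± 0.11, and a second probe gave 0.72 and 1.04 at 3 h. With the spike-in slope divided out the wildtype rise at 24 h was 0.36 (adjusted p = 0.0352). Tars rose at 3 h by 0.36 ± 0.11 and 0.34 ± 0.11 (adjusted p = 0.0227 and 0.0269) and was back at 24 h (-0.01 and 0.02). The wildtype rise of Tars did not pass without any 1 of the 4 arrays compared (0.33 to 0.40, adjusted p = 0.0622 to 0.117), and the knockout one not without the 3 h array of mouse 4 (0.24, adjusted p = 0.136) or either untreated array (0.33 and 0.35). With quantile normalization the Tars differences were 0.18 and 0.13 and did not pass (adjusted p = 0.188 and 0.314). Gars, the glycyl enzyme, rose in knockout cells (0.47 ± 0.14 at 3 h and 0.58 ± 0.14 at 24 h, adjusted p = 0.0193 and 0.00644), and its wildtype differences of 0.24 and 0.22 did not pass. The 3 h rise of Gars did not pass without the untreated array of mouse 3 (0.44, adjusted p = 0.0827) or mouse 4 (0.49, adjusted p = 0.0591) or the 3 h array of mouse 4 (0.32, adjusted p = 0.112), nor with quantile normalization (0.12, adjusted p = 0.482) or only the groups compared (adjusted p = 0.0648). The 24 h rise of Gars was 0.25 and did not pass with the spike-in slope divided out (adjusted p = 0.21). Over the 12 arrays the levels of Gars ranged from 4.06 to 4.85 and those of Tars from 2.34 to 3.12.

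Iars, Vars and Nars fell late, as did the tRNA exporter Xpot. Iars read 1.53 and 1.93, 1.80 and 2.00, and 0.92 and 1.06 in wildtype and 1.29 and 1.44, 1.36 and 1.71, and 0.29 and 0.61 in knockout cells. Vars read -0.90 and -0.56, -0.82 and -0.73, and -1.26 and -1.21 in wildtype and -0.81 and -0.71, -1.14 and -0.75, and -1.81 and -1.77 in knockout cells. Xpot read 2.55 and 2.37, 2.52 and 2.52, and 1.86 and 1.85 in wildtype and 2.73 and 2.38, 2.51 and 2.59, and 1.37 and 1.71 in knockout cells. In each of the 3 the 24 h arrays lay below the untreated and 3 h arrays of their genotype. The 24 h differences were -0.74 ± 0.18 and -0.91 ± 0.18 for Iars, -0.50 ± 0.15 and -1.03 ± 0.15 for Vars, -0.49 ± 0.13 and -0.79 ± 0.13 for Nars and -0.61 ± 0.15 and -1.02 ± 0.15 for Xpot (adjusted p = 0.00043 to 0.0221).

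In wildtype cells these late falls did not all pass without single arrays. Without the untreated array of mouse 2 they were -0.54 for Iars, -0.33 for Vars and -0.44 for Nars (adjusted p = 0.0635, 0.14 and 0.0726). Without the 24 h array of mouse 1 they were -0.67, -0.48 and -0.48 (adjusted p = 0.0554, 0.0942 and 0.0634), and without that of mouse 2 -0.53 for Vars and -0.49 for Nars (adjusted p = 0.0712 and 0.0634). Xpot was -0.52 without the untreated array of mouse 1 (adjusted p = 0.0565). Sars fell at 3 h in knockout cells (-0.69 ± 0.17, adjusted p = 0.00787) and its wildtype difference of -0.39 ± 0.17 did not pass (adjusted p = 0.0879, and 0.0233 with the block), and it rose from 3 h to 24 h in both (0.60 and 0.99). The wildtype step did not pass without the 3 h array of mouse 1 (0.50, adjusted p = 0.0958) or the 24 h array of mouse 1 (0.62, adjusted p = 0.0561) or mouse 2 (0.57, adjusted p = 0.0722), nor with the spike-in slope divided out (0.31, adjusted p = 0.164). The knockout fall at 3 h did not pass with only the groups compared (adjusted p = 0.0515) and was -0.46 without the 3 h array of mouse 3 (adjusted p = 0.046). Levels ranged from 1.86 to 3.24 for Sars and from 1.09 to 2.15 for Nars. Eprs (0.45 to 1.01), Lars (2.89 to 3.38), Mars (-0.11 to 1.00) and Yars (-4.66 to -3.73) did not pass in any LPS comparison of either genotype, with differences of -0.35 to 0.40. Alternatives changed this for Lars, at -0.40 in wildtype cells at 3 h with quantile normalization (adjusted p = 0.00729), and for Yars, at 0.60 in wildtype cells at 24 h with the spike-in slope divided out (adjusted p = 0.0185). With the block Eprs passed in knockout cells at 3 h (0.31, adjusted p = 0.027) and from 3 h to 24 h (-0.31, adjusted p = 0.0239), and the latter was -0.42 without the 24 h array of mouse 4 (adjusted p = 0.0355). Without the 3 h array of mouse 4 Mars was -0.63 at 3 h (adjusted p = 0.0198), and without that of mouse 3 Yars was 0.67 at 3 h (adjusted p = 0.0247) and -0.63 from 3 h to 24 h (adjusted p = 0.0274).

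Among the regulators upstream of Atf4, PKR and PERK moved in opposite directions. Of 17 eIF2 alpha kinases, eIF2B subunits and regulators, 6 were higher and 4 lower at 3 h, and 5 were higher and 6 lower at 24 h in wildtype cells (all genes 23.2% and 23.4% at 3 h, 23.6% and 26.4% at 24 h). Eif2ak2, the double-stranded RNA sensor PKR and an interferon-induced gene, rose by 2.81 ± 0.09 at 3 h and 2.42 ± 0.09 at 24 h. Eif2ak3, the endoplasmic reticulum stress kinase PERK, fell by 2.63 ± 0.14 and 1.30 ± 0.14 (adjusted p = 2.06e-06 and 0.000138). Ppp1r15b, the constitutive counterpart of Ppp1r15a, rose by 2.48 ± 0.12 and 1.51 ± 0.12. In knockout cells the differences at 3 h and 24 h were 3.30 and 2.54 for Eif2ak2, -3.21 and -1.68 for Eif2ak3 and 3.00 and 2.14 for Ppp1r15b.

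Among 30 other genes linked to ATF4, 9 were higher and 6 lower at 3 h and 6 higher and 7 lower at 24 h in wildtype cells, near the same shares of all genes. Slc7a11, the cystine importer, rose by 5.25 ± 0.22 at 3 h, from -7.10 and -6.65 to -1.51 and -1.74, and was not well above background at 24 h in either genotype. Jdp2, a bZIP repressor, rose by 4.80 ± 0.09 at 3 h, and Nupr1, a stress-induced chromatin protein, by 4.27 ± 0.10 at 3 h and 3.70 ± 0.10 at 24 h. At 24 h Slc1a4, a neutral amino acid transporter, rose by 2.05 ± 0.40 (adjusted p = 0.00319) and Cebpb by 1.90 ± 0.14. At 3 h, when these 3 genes were up, Ddit3 was at its lowest level in both genotypes.

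The other charging enzymes gave a mixed picture. Of 10 further cytosolic synthetases and scaffold proteins 4 were higher and 0 lower at 3 h in wildtype cells, led by the scaffold protein gene Eef1e1 (1.16 ± 0.11), Rars (0.77 ± 0.16) and Kars (0.58 ± 0.09), against 23.2% and 23.4% of all genes, and 1 was higher and 3 lower at 24 h (23.6% and 26.4%), namely Dars (-0.67 ± 0.15), Qars (-0.50 ± 0.10) and Aimp1 (-0.42 ± 0.09) on the lower side. Of 16 mitochondrial synthetases 0 were higher and 11 lower at 3 h in wildtype cells (median -0.51), with Vars2 (-1.35 ± 0.14), Pars2 (-0.99 ± 0.11) and Cars2 (-0.83 ± 0.19) changing most, against 23.2% and 23.4% of all genes. In knockout cells 0 were higher and 14 lower (median -0.65), against 26.4% and 25.7% of all genes. At 24 h 5 were lower in wildtype cells (26.4% of all genes), among them Vars2 (-0.76 ± 0.14) and Lars2 (-0.53 ± 0.11).

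Before LPS few members differed between genotypes past the threshold. The difference, knockout minus wildtype, was below 0 for 26 of 33 members with a median of -0.30, against a median of 0.04 over all genes, but only 5 members passed: 2 were higher and 3 lower in knockout cells, against 3.76% and 3.07% of all genes. Ddit4 (1.16 ± 0.23, 2.23-fold, adjusted p = 0.0275) and Vldlr (1.03 ± 0.22, adjusted p = 0.0358) were higher. Chac1 (-1.25 ± 0.25, 2.38-fold, adjusted p = 0.0289), Atf4 (-0.55 ± 0.11, adjusted p = 0.0302) and Cars (-0.53 ± 0.13, adjusted p = 0.0462) were lower. For each of the 5 the wildtype and knockout arrays printed above did not overlap. The 5 were picked by a test on these same arrays, so this adds no support. The share of all genes without overlap is not given here. Slc7a1 had the largest difference of those that did not pass, -1.27 ± 0.32 (adjusted p = 0.0525, and 0.043 with the mouse as a random block).

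These 5 calls rest on few arrays. Without the untreated array of mouse 1 only Atf4 remained, without that of mouse 2 none, without that of mouse 3 none, and without that of mouse 4 Chac1, Ddit4, Psat1 (-1.23) and Slc7a1 (-1.66) passed. Over these 4 fits the differences were 1.04 to 1.27 for Ddit4, 0.80 to 1.26 for Vldlr, -1.52 to -0.98 for Chac1, -0.68 to -0.42 for Atf4 and -0.59 to -0.47 for Cars. With dim probes kept 0 of 33 passed. The 4 untreated arrays fitted alone also gave 0 of 33. That fit called 0 of all genes and so missed Commd1 too, and it cannot decide for the members. On untreated arrays the spike-in slopes were 0.794 and 0.797 for the knockout mice, above those of the wildtype mice (0.735 and 0.743). With it divided out 16 members passed, 2 higher and 14 lower, among 4149 higher and 2235 lower of all genes.

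**Figure D4:**
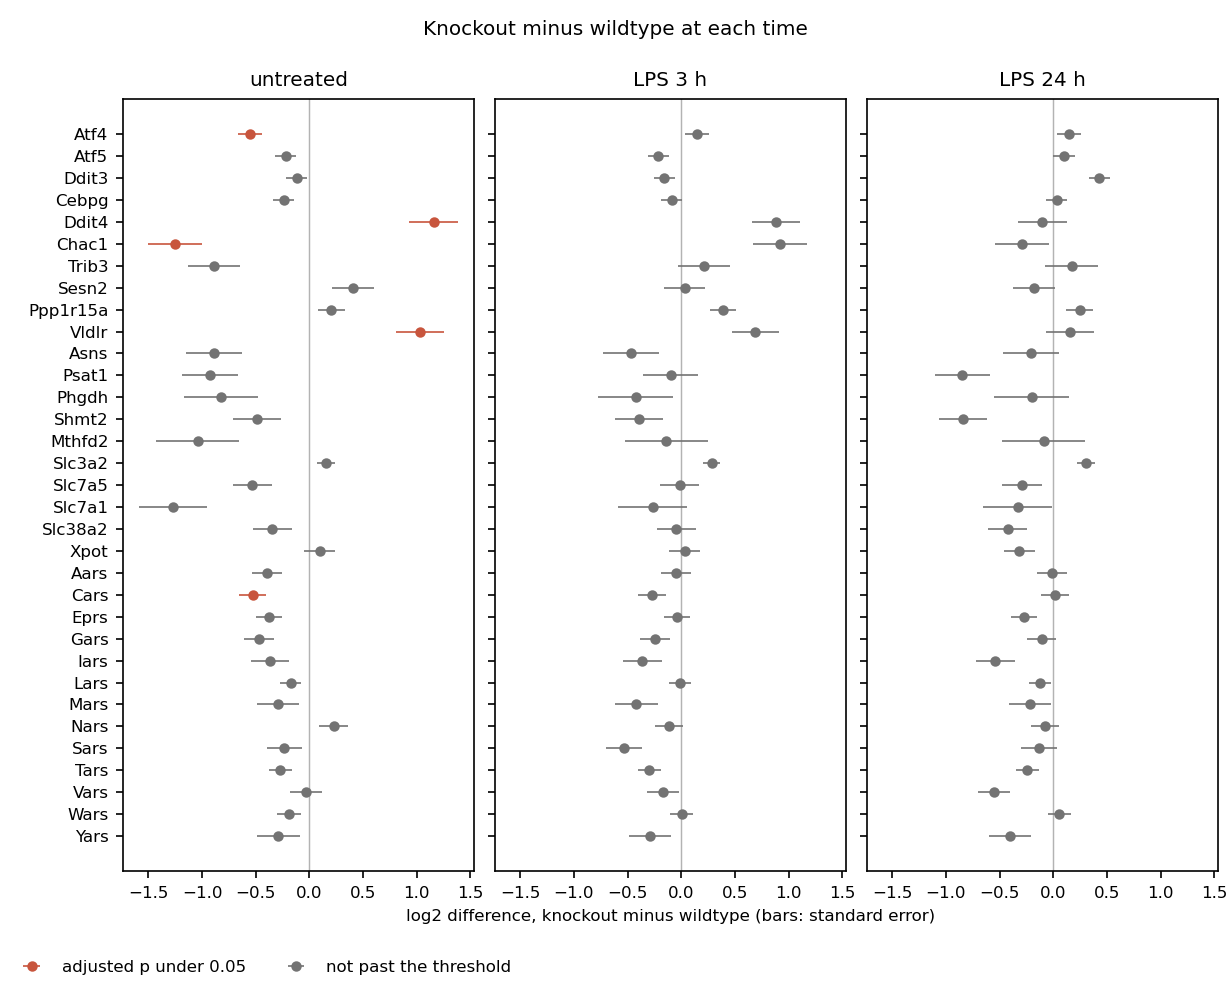
Log2 difference between knockout and wildtype cells (x axis, knockout minus wildtype, with standard errors) for the 33 members (rows) without LPS, at 3 h and at 24 h. The 5 members in red passed the test, all of them in untreated cells, and most untreated points lie to the left of 0.

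With LPS no member passed between genotypes in limma at the settings used. At 3 h 0 of 33 were higher or lower (1.07% and 0.618% of all genes). At 24 h 0 of 33 were higher or lower (0.718% and 1.67% of all genes). The largest 3 h differences were those of Chac1 (0.92 ± 0.25, adjusted p = 0.0839) and Ddit4 (0.88 ± 0.23, adjusted p = 0.0761), and at 24 h those of Psat1 (-0.84 ± 0.26) and Shmt2 (-0.84 ± 0.22). With the spike-in slope divided out 8 members passed at 3 h. The share of all genes passing in that fit is not given here, so the 8 carry no weight of their own. With only probes above background on every array Ddit3 passed at 24 h (0.43, adjusted p = 0.0393). Without the 3 h array of mouse 4 the 3 h differences were 1.27 for Ddit4 and 0.98 for Vldlr. For Sars, Shmt2, Mars and Cars they were -0.76, -0.74, -0.71 and -0.46. These members were named after that fit was seen.

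At the settings used, the LPS responses of the genotypes did not differ past the threshold for any member. At 3 h 0 of 33 passed (0.0348% of all genes), and at 24 h 0 of 33 passed (0.326% of all genes). Under alternatives given above, Chac1 passed at 3 h and 24 h with the mouse as a block. It also passed at 3 h with normexp background correction and with only probes above background on every array. Atf4 had differences of 0.70 ± 0.16 at both times (adjusted p = 0.14 and 0.108), and Trib3 of 1.10 ± 0.34 and 1.06 ± 0.34 (adjusted p = 0.242 and 0.217). For both genes the knockout response was the larger number and the untreated knockout level the lower. Over the mean of the 3 times of each mouse 0 of 33 members passed between genotypes, as did 0.0% of all genes. That fit did not call Commd1 itself either (-2.99 ± 0.19, adjusted p = 0.129 in limma), so it cannot decide for the members. Without mouse 4 the differences were 0.78 for Ddit4, 0.70 for Vldlr and -0.90 for Psat1. The fit without mouse 4 has 1 knockout mouse, and its spread between mice comes from the wildtype mice alone.

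In the lists around the members, the untreated genotype difference passed for 5 of 30 other ATF4-linked genes, named here after their values were seen. Of all genes 3.76% were higher and 3.07% lower in untreated knockout cells. Slc1a4 (1.87 ± 0.40), Herpud1 (0.63 ± 0.13), Nupr1 (0.45 ± 0.10) and Map1lc3b (0.35 ± 0.09) were higher in knockout cells, and Atf3, a stress factor induced by ATF4, was lower (-1.10 ± 0.14, adjusted p = 0.00884). Atf3 read 3.73 and 3.83 in untreated wildtype and 2.48 and 2.88 in untreated knockout cells, while at 3 h it read 4.49 and 4.68 against 4.87 and 4.88. Of the further synthetases and scaffold proteins Eef1e1 was lower in knockout cells both untreated (-0.78 ± 0.11) and at 24 h (-0.52 ± 0.11). Of the eIF2 alpha kinases Eif2ak2 was higher at 3 h (0.55 ± 0.09, adjusted p = 0.0422). With only the groups compared, 0 of all genes passed between genotypes untreated, at 3 h or at 24 h. All the genotype calls of these listed genes were thus lost in that fit, as was that of Commd1, so it cannot decide for them. Their values under the other alternatives are not given here.

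The 2 mice of a genotype differed in step for many members. Mouse 2 was above mouse 1 for 25, 26 and 22 of 33 members untreated, at 3 h and at 24 h, against 42.5%, 58.3% and 49.2% of all genes. Mouse 4 was above mouse 3 for 21, 27 and 28 of 33, against 40.8%, 41.3% and 61.4%. The enzymes of serine, one-carbon and asparagine synthesis were higher in mouse 2 and in mouse 4 for 5 of 5 genes in all groups but wildtype at 24 h, where they were for 4 of 5. Their median gap was 0.33 in untreated wildtype, 0.61 in untreated knockout and 0.70 in knockout cells at 3 h. Members share an array, so these counts describe the arrays of the 4 mice and carry no test. Each mouse had the same position on every slide, so mouse and position cannot be told apart.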

How the data were processed

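Mouse gene expression arrays of 1 colour (Agilent) were read for 12 samples. Per the file headers, each file holds spot intensity processed by Agilent Feature Extraction, version 10.7.3.1 per the submitters' processing notes, with probe coordinates on mm9. The authors also deposited a table of log2 values; it equals each array's log2 processed signal less a constant, within 0.01 for 99.5% to 100% of probes. Its column medians lie between -4.50 and -4.30, and how the authors chose the constant is not given in the sources used here.

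The log2 processed signal of spots other than controls and outliers was averaged per probe and centred on the array's 75th percentile. A probe was kept if any group had it well above background in both of its arrays (28425 probes), and the brightest probe stood for a gene (22977 genes). Names came from RefSeq by accession (26412 probes) or symbol (3854 probes) or synonym (735 probes), otherwise from the file (8428 probes). limma 3.58.1 in R 4.3.3 (statmod 1.5.0) fitted group means over all 12 arrays (6 residual and 2.23 prior degrees of freedom), and p-values were adjusted by Benjamini-Hochberg over all genes. With 2 mice a genotype, p-values measure the spread between these samples. Array precision is limited by their number. The fit was tested on simulated data.

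The labels name the mouse, so samples of 1 mouse are paired within a genotype. Same-mouse deviations correlated at 0.19, 0.13 and 0.15 in wildtype and 0.35, 0.13 and 0.12 in knockout cells, for untreated against 3 h, untreated against 24 h and the later pair of times in turn. Arrays of 1 mouse also share their position on the slides, so these values do not separate mouse from position. The mouse as a block was one of the alternatives, beside other background corrections, normalizations, filters, probe choices, the deposited table, the spike-in slope divided out, fits of only the groups compared, and each array left out.

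The members and gene lists were chosen with earlier results of these data known. All members are named; levels on every array are given for those with a called change of at least 1 (log2) with LPS or any call between genotypes, other members by range, and in other lists up to 3 called genes at each time in wildtype cells. Promoter windows whose match lies only after the start (Trib3, Iars, Yars) were not printed.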

Additional observations from a re-analysis of the deposited data

Results flagged for a closer look

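For 2 members every mouse of one genotype moved up at 3 h of LPS and every mouse of the other moved down. The share of all genes with this pattern is not given here, so the count carries no weight of its own. Chac1 changed by -0.82 and -0.71 in the wildtype mice and by 1.33 and 1.49 in the knockout mice, and the difference of the responses was 2.17 ± 0.36 (limma, adjusted p = 0.0882). Nars changed by 0.01 and 0.12 in the wildtype mice and by -0.39 and -0.16 in the knockout mice, and the difference of the responses was -0.34 ± 0.19 (limma, adjusted p = 0.524). The wildtype changes of Nars were small next to that standard error. With the mouse as a block the Chac1 difference passed (limma, adjusted p = 0.0497), as it did with normexp background correction (adjusted p = 0.0302) and with only probes above background on every array (adjusted p = 0.0387).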

How the results depend on the processing

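With LPS, 14, 20, 22, 22, 25 and 25 members were called (wildtype 3 h, 24 h and 24 h against 3 h, then knockout), and 10, 14, 14, 14, 20 and 19 of these were called under every alternative. With only the groups compared, 14 members passed in knockout cells at 3 h. With the spike-in slope divided out, Atf5 in wildtype cells turned to -0.38 at 24 h and to -0.051 from 3 h to 24 h.

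Between genotypes the counts depended on the setting. The 5 untreated calls became 10 with normexp background correction, 9 when a probe had to be above background on every array, 16 with the spike-in slope divided out, and 0 with no filter on dim probes or with only the groups compared, and 0 to 4 with 1 array left out. At 3 h the count of 0 became 3 with normexp, 2 with that stricter filter, 8 with the spike-in slope divided out and 0 to 6 with 1 array left out. At 24 h it became 1 with that stricter filter. The difference of the 3 h responses had 1 call (Chac1) with normexp, with that stricter filter and with the mouse as a replicate block, and that of the 24 h responses 1 call with the block. Over mouse means the count was 0 to 3 with 1 mouse left out. Where 1 array is left of a group, it is assumed to vary like the other groups. With the spike-in slope divided out, the calls over all genes rose too, as given above for untreated cells. Apart from fits of only the groups compared, counts over all genes under the other settings are not given here. The member counts between genotypes therefore carry no weight of their own.

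With the mouse as a replicate block 17, 21, 24, 22, 26 and 26 members were called with LPS, and 6 between untreated genotypes. Calls over all genes rose with the block too. From 3 h to 24 h they went from 12083 to 12425 in wildtype and from 13547 to 13994 in knockout cells. At 24 h in knockout cells they went from 13226 to 13581. Calls moved by the block that are not given above were those of Slc7a5 from 3 h to 24 h in wildtype (adjusted p = 0.0124), Mthfd2 from 3 h to 24 h in wildtype (adjusted p = 0.00884) and Sars at 24 h in knockout cells (adjusted p = 0.0449). Normexp moved the median of all genes at 24 h by 0.22 in wildtype and 0.29 in knockout cells, and the share of calls that were higher from 47.2% to 64.5% and from 45.2% to 64.6%. The cause of these changes was not tested. Only Vldlr was not well above background on all arrays.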
